A study of Rattus norvegicus with 6 samples.

Results

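The immediate early genes and MAPK phosphatases described here, chosen by name and read through every probe set annotated to them, are Fos, Jun, Junb, Egr1, Nr4a1, Myc, Klf6, Dusp1, Dusp4 and Dusp6. All 10 were represented on the array, by 24 of its 8799 probe sets, out of 4736 named genes in all. Klf6 and Dusp4 had 1 probe set each and the other 8 genes had several. Probe sets of a gene are numbered here from the highest mean intensity over the 6 arrays down. A probe set's intensity depends on its own oligonucleotides, so levels are compared between rats and never between probe sets. The 2 Nr4a1 probe sets stem from the same sequence record, as do the 2 Myc probe sets and Fos probe sets 1 and 3, so these are not separate measurements of different transcripts.

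Immediate early genes are switched on within minutes of a growth factor, hormone or stress signal, without need for new protein, and the MAPK phosphatases then switch the signal off. Growth factor receptors act through the kinases RAF, MEK and ERK, whose targets include the serum response factor complex, which in turn drives genes such as Fos and Egr1. FOS and JUN family proteins pair to form the transcription factor AP-1, and DUSP proteins remove phosphate from ERK, JNK and p38.

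Total RNA was measured in the dorsolateral prostate of 3 male ACI rats, an inbred strain, kept on a high corn oil diet and of 3 kept on a low corn oil diet, both for 18 months and both given as 18 months old in the labels. The labels name no transgene and no other agent, and each rat had its own array. The comparison asks which transcripts differ after long feeding of a fat rich in linoleic acid. High corn oil replicate 3 belongs to the high diet by its title and source name. Its description instead gives the low diet, and it was kept in the high group.

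The arrays did not fall cleanly by diet. High corn oil replicate 1 had Spearman correlations of 0.870 and 0.882 with the other high corn oil arrays and of 0.928 to 0.950 with the low corn oil arrays. BioB, BioC and BioD, bacterial transcripts spiked in at set amounts and read by 7 probe sets, had geometric mean intensities of 16858, 6098 and 9008 in high corn oil replicates 1 to 3, and 20865, 15249 and 8365 in low corn oil replicates 1 to 3. Pbsn, the androgen-driven secretory protein probasin, had intensities of 99574, 19851 and 21926 in high corn oil replicates 1 to 3, and of 78113 to 82039 in low corn oil rats. Differences whose call changes without high corn oil replicate 1 are therefore given with and without it.

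No gene of the set passed the test with all 6 arrays. Klf6, Dusp6 and Junb were lower on average under the high corn oil diet, Dusp4 was at or below 0 on every high corn oil array, and Nr4a1 was higher, while Fos, Jun, Egr1, Myc and Dusp1 gave small or conflicting differences. Of the 24 probe sets, 20, from 9 genes, were bright enough to be tested. Limma called 0 of these 20 at an adjusted p of 0.05, where it called 0 of all 5244 tested probe sets (0%). At an unadjusted p under 0.05 there were 4 of the 20, beside 9.95% of all tested probe sets. Of these, 3 were lower (Junb probe set 2, Klf6 and Dusp6 probe set 1), beside 4.81% of all, and 1 was higher (Nr4a1 probe set 2), beside 5.15%. Over the 10 genes, each by its probe set 1, the median log2 difference of high minus low corn oil was -0.31, with the untested Dusp4 included. Over the 9 tested genes it was -0.27, beside 0.032 over all tested probe sets, taken without choosing 1 per gene. These values are on the scale log2(intensity + 156.1), with values below 0 set to 0, which understates the differences of dim probe sets.

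The deposited intensities of the 2 diets did not overlap for 6 of the 24 probe sets, or 25%, beside 15.7% of all probe sets other than controls. The 4 lower ones were Junb probe set 2, Klf6, Dusp4 and Dusp6 probe set 1, beside 8.42% of all, and the 2 higher ones were both Nr4a1 probe sets, beside 7.3%. Each gave p = 0.1 in a two-sided exact permutation test of the mean intensity, which is the smallest p that 3 arrays against 3 allow.

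**Figure D1:**
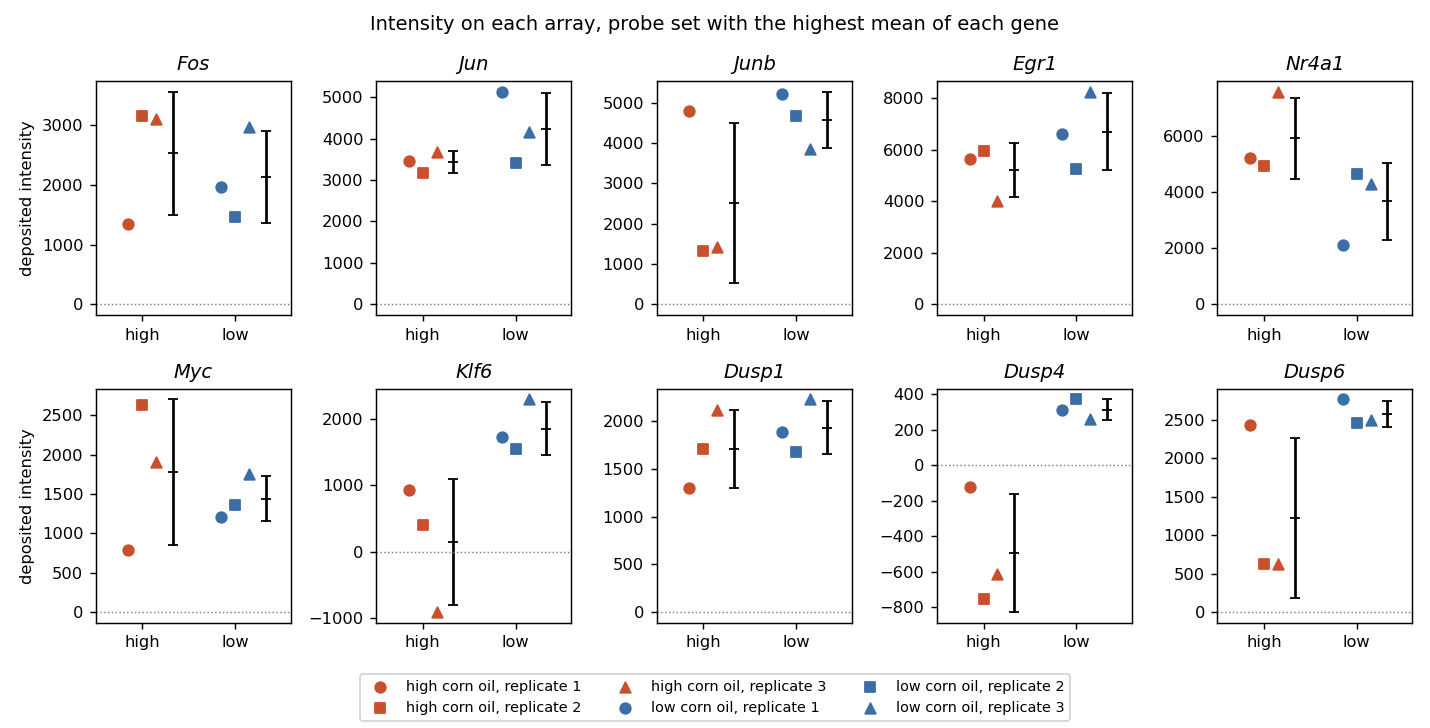
Deposited intensity (vertical axes, linear, arbitrary units) of probe set 1 of each gene on the 3 high and 3 low corn oil arrays, with the mean ± SD (n = 3) as a black bar beside each group and a dotted line at 0. High corn oil replicates 2 and 3 sit at 1319.5 and 1414 for Junb and 619 and 629 for Dusp6, below all other arrays.

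The upstream sequences of 5 of these genes show which signal-response elements lie close to their starts. RefSeq's table held 6 of the 10 members. Each window runs from 250 bases before to 50 after the annotated start. Capitals mark a CArG box (the core bound by serum response factor) in Egr1 and Klf6, a TATAAA in Junb and the EGR-family site GCGGGGGCG, on the opposite strand, in Nr4a1. Dusp6 is shown because it had the smallest adjusted p of the set when high corn oil replicate 1 was left out, and no searched motif was found in its window.
Junb promoter, GRCr8 chr19:40080876-40081175, plus strand: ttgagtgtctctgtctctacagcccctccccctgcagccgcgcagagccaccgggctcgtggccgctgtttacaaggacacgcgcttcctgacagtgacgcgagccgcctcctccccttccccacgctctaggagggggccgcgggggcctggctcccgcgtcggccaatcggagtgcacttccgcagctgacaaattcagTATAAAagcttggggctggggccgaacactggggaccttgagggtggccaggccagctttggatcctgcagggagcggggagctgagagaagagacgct
Egr1 promoter, GRCr8 chr18:26736828-26737127, plus strand: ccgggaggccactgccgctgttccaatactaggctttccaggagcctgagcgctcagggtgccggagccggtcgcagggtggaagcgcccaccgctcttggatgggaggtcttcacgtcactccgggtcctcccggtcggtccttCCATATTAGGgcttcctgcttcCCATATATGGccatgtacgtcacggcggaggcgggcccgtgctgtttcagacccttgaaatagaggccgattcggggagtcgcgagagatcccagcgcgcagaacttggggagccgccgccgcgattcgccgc
Nr4a1 promoter, GRCr8 chr7:134259888-134260187, plus strand: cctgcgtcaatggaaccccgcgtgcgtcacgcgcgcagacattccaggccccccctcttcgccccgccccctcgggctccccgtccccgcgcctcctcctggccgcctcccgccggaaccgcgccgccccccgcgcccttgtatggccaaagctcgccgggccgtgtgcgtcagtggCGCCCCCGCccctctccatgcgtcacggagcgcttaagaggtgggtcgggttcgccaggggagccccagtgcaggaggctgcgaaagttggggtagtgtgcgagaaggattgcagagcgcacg
Klf6 promoter, GRCr8 chr17:69458429-69458728, minus strand: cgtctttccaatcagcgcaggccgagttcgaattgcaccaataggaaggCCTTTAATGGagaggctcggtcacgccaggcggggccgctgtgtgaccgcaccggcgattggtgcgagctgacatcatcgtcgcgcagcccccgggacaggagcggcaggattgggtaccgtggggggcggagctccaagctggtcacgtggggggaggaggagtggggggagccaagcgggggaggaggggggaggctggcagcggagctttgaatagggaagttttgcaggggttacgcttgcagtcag
Dusp6 promoter, GRCr8 chr7:35979354-35979653, plus strand: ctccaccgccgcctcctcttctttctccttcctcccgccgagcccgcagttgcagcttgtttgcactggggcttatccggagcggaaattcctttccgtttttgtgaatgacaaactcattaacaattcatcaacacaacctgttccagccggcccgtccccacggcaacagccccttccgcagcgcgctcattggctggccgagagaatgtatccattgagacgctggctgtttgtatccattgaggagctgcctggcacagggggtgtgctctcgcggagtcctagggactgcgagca
Both strands were searched, and the motifs in these sequences do not overlap. A CArG box was found in 1.64% of 33469 rat promoter windows of this length, TATAAA in 14.2% and GCGGGGGCG in 2.73%. The cAMP response element TGACGTCA, found in 1.83% of windows, was present in Dusp1 alone among the 6 members, and the AP-1 sites TGACTCA and TGAGTCA, found in 4.63%, in none. The 2 CArG boxes of Egr1 begin at positions -105 and -83 relative to its start. A match in these letters is a description of the window and no evidence of binding in these rats.

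Junb, an AP-1 subunit that often restrains JUN activity, was low in 2 of the 3 high corn oil rats. Its probe set 1 had intensities of 4796, 1319.5 and 1414 under the high diet, against 5226, 4661 and 3847 under the low diet. Replicates 2 and 3 of the high diet lay below all other arrays, but replicate 1 lay within the low corn oil range. The log2 difference was -1.06 ± 0.45 (SE), with a limma adjusted p of 0.500.

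Junb probe set 2 separated the diets: it had intensities of 1911, 24.5 and 943 in the high corn oil rats, against 5385, 3342 and 2677 in the low corn oil rats. Its log2 difference was -2.35 ± 0.82 (limma adjusted p = 0.480). Without high corn oil replicate 2 it was -1.33, so that array carried a large part of the difference, and without high corn oil replicate 1 it was -3.09 (limma adjusted p = 0.0767). Both probe sets thus pointed the same way. Probe set 1 passed without high corn oil replicate 1, at -1.63 (limma adjusted p = 0.0208).

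Fos, the partner of JUN proteins in AP-1 and the classic serum-induced gene, did not separate the diets. Fos probe set 1 had 1346, 3159 and 3101 in high corn oil rats, against 1977, 1464 and 2978 in low corn oil rats. The spread within each diet was as wide as the distance between them, and the log2 difference was 0.19 ± 0.38 (limma adjusted p = 0.838). Probe set 2 was at 0.058 ± 0.31 (limma adjusted p = 0.948). Probe set 3, below the filter and at -91 in high corn oil replicate 2, was at -1.13 with no test, against the sign of the other 2.

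Jun, which encodes the c-JUN subunit that JNK phosphorylates, was nearly level. Its probe set 1 had 3450, 3166 and 3684 under the high diet, against 5130, 3411 and 4160 under the low diet, and the ranges overlapped. The log2 difference was -0.27 ± 0.19 (limma adjusted p = 0.571). Probe set 2 was at 0.061 ± 0.24 (limma adjusted p = 0.926). Probe sets 3 and 4 were below the filter, with 1 and 2 high corn oil values and 1 and 2 low corn oil values at or below 0, and give no usable difference.

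Egr1, a zinc finger factor induced by ERK signalling, gave 4 probe sets with no common direction. Probe set 1 had 5636, 5964 and 3999.6 in high corn oil rats, against 6599.9, 5259.6 and 8248 in low corn oil rats. The diets overlapped, at a log2 difference of -0.35 ± 0.23 (limma adjusted p = 0.554). Probe sets 2 and 4 were at 0.054 ± 0.26 and -0.048 ± 0.23 (limma adjusted p = 0.940 for both). Probe set 3 stood at 1.30 ± 0.64 (limma adjusted p = 0.508), with 896, 1852 and 1815 under the high diet, against 274, 191 and 1713 under the low diet. Low corn oil replicate 3 was as bright there as the high corn oil rats, and without it the difference was 2.06.

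Nr4a1, the orphan nuclear receptor NUR77 induced by growth factors and by cAMP, was the one gene of the set higher in every high corn oil rat. Its probe set 2 had 3339, 3698 and 4333 under the high diet, against 2439, 2668 and 2617 under the low diet. The SD between rats was 503 and 120.2 (n = 3 each), and the mean difference was 1215 units. The log2 difference was 0.52 ± 0.16 (limma adjusted p = 0.462, unadjusted p = 0.0129). Probe set 1 had 5218, 4941 and 7573 against 2111, 4628 and 4301, a difference of 0.71 ± 0.32 (limma adjusted p = 0.501), which fell to 0.37 without low corn oil replicate 1. Leaving out any other single array kept probe set 1 between 0.52 and 0.91, and leaving out any single array kept probe set 2 between 0.43 and 0.61. With high corn oil replicate 3 taken as low, by its description, both fell to 0.25 (limma adjusted p = 0.998). Within high and within low spike-in signal, probe set 1 differed by 0.71 and 0.49, and probe set 2 by 0.37 and 0.58. Since the diets did not overlap on either probe set, this sign was fixed in advance, as it was with any array left out. Each of these contrasts had 1 array on 1 side and was not tested.

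Myc, which drives growth and ribosome production, gave opposite signs from its 2 probe sets. Probe set 1 had 786, 2628 and 1910.3 in high corn oil rats, against 1206, 1356 and 1755 in low corn oil rats, a log2 difference of 0.15 ± 0.40 (limma adjusted p = 0.883). Probe set 2 had 365, 72.1 and 1038, against 815, 988 and 816, a difference of -0.98 ± 0.56 (limma adjusted p = 0.536), which was -0.38 without replicate 2 of the high diet and -1.57 without its replicate 3. High corn oil replicates 2 and 3 were above all low corn oil rats on the first, whereas replicates 1 and 2 were below them on the second.

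Klf6, a zinc finger factor known as a growth-restraining gene in prostate, had its 3 high corn oil values below all low corn oil values. It had 937, 398 and -911 under the high diet, against 1728, 1545 and 2301 under the low diet. The order of the groups is clear in these rats, but the value below 0 makes the size depend on the floor. The log2 difference was -2.13 ± 0.65 (limma adjusted p = 0.462, unadjusted p = 0.0132). Without high corn oil replicate 3, the array below 0, it was -1.35 (limma adjusted p = 0.855), and with the asinh transformation, which keeps values below 0, it was -3.04. Leaving out high corn oil replicate 1 gave -2.76, which passed (limma adjusted p = 0.0489).

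Dusp6, the cytoplasmic phosphatase that acts on ERK and is itself induced by ERK, followed the same arrays as Junb. Probe set 1 had 2429, 619 and 629 in high corn oil rats, against 2768, 2459 and 2498 in low corn oil rats. Replicates 2 and 3 of the high diet were far below the rest, while replicate 1 was just under the lowest low corn oil value. The low corn oil rats varied little, with an SD of 168 around a mean of 2575 (n = 3). The log2 difference was -1.23 ± 0.46 (limma adjusted p = 0.480).

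Dusp6 probe set 2 had 986, -969 and -869 under the high diet, against 1467, 1044 and 429 under the low diet, so replicates 2 and 3 were the only arrays below 0. Its difference was -1.78 ± 0.82 (limma adjusted p = 0.505). The size depends on the floor, as for Klf6: it was -3.38 with the asinh transformation and -1.27 with the larger pseudocount, and -0.62 with high corn oil replicate 3 taken as low. Both probe sets passed without high corn oil replicate 1, at -1.81 and -2.74 (limma adjusted p = 0.0155 and 0.0431).

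Dusp4, a nuclear phosphatase of ERK and JNK, was at or below 0 on all 3 high corn oil arrays and above 0 on all 3 low corn oil arrays. The intensities were -119.9, -751 and -613 in high corn oil rats, against 312, 372 and 258 in low corn oil rats. Such a pattern was found in 0.572% of all 8740 probe sets other than controls. The low corn oil values themselves were dim, its mean was below the filter, and no fold is given. With no filter it was the 1 member called (limma adjusted p = 0.0325), where limma called 0.103% of all probe sets. In that fit the 3 high corn oil values were set to the same floor and so had no spread. With values below 0 kept by asinh and no filter, a setting chosen after seeing the data, the limma adjusted p was 0.293.

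Dusp1, the stress-inducible nuclear phosphatase of p38, JNK and ERK, was nearly level on 2 of its 3 probe sets. Probe set 1 had 1300.3, 1707 and 2121.5 in high corn oil rats, against 1882, 1680.1 and 2229 in low corn oil rats, a log2 difference of -0.18 ± 0.22 (limma adjusted p = 0.751). Probe set 2 was at -0.23 ± 0.29 (limma adjusted p = 0.751). Probe set 3 had 1085, -98.0 and 192.0, against 839, 1029.8 and 1125, with the high corn oil replicates 2 and 3 below all other arrays. Its difference was -1.50 ± 0.69 (limma adjusted p = 0.505), -2.30 without high corn oil replicate 1 (limma adjusted p = 0.0428) and -0.80 without high corn oil replicate 2 (limma adjusted p = 0.734). The 3 probe sets therefore do not give 1 answer for Dusp1.

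**Figure D2:**
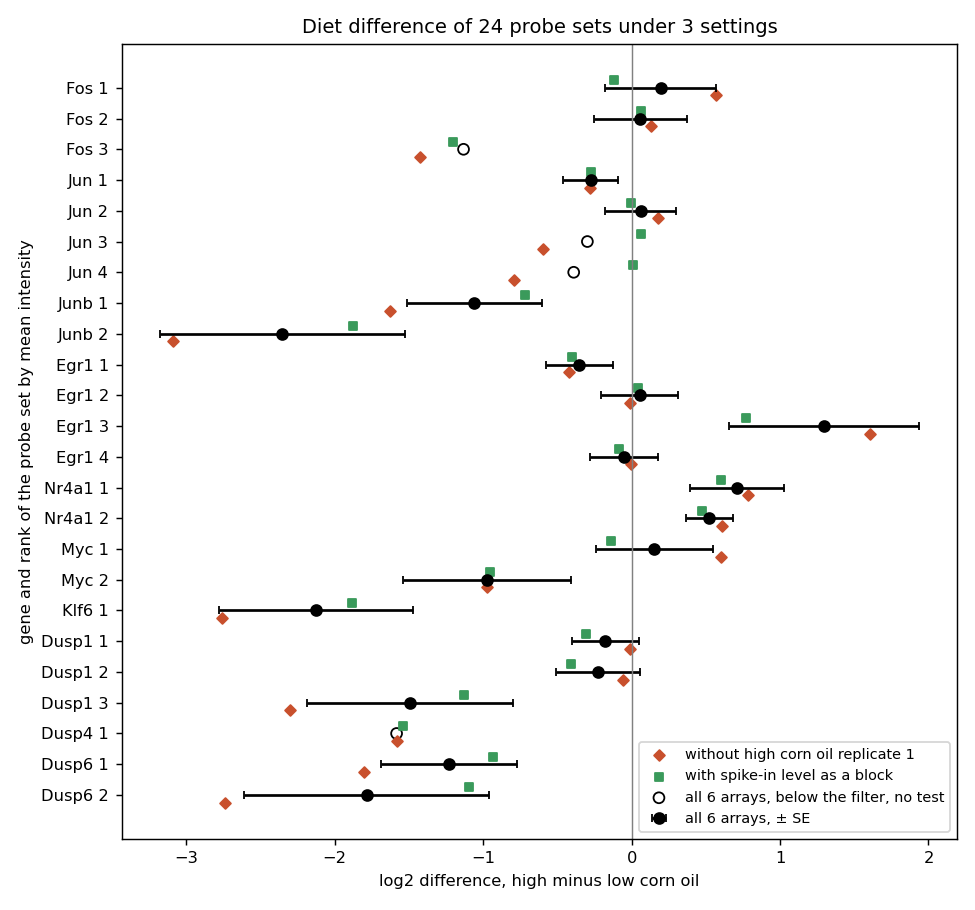
The log2 difference of high minus low corn oil (horizontal axis) for the 24 probe sets, by gene and number (vertical axis), with all 6 arrays (black, ± SE; open circles were below the filter), without high corn oil replicate 1 (diamonds) and with spike-in level as a block (squares). Nr4a1 stays right of 0 and Junb, Klf6, Dusp4 and Dusp6 left of 0 under all 3 settings, with Dusp6 probe set 1 at -1.23, -1.81 and -0.93. Where the diets did not overlap, this sign was fixed in advance. That holds for both Nr4a1 probe sets, Junb probe set 2, Klf6, Dusp4 and Dusp6 probe set 1.

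Values at or below 0 were more frequent for these genes under the high diet. Over the 24 probe sets there were 1, 6 and 4 of them in replicates 1 to 3 of the high diet, against 0, 1 and 2 in low corn oil replicates 1 to 3. That is 15.3% of 72 values in high corn oil rats and 4.17% of 72 in low corn oil rats, where the shares over the whole array were 21.6% and 19.3%. Of the 11 such high corn oil values, 3 belonged to Dusp4, 2 each to Dusp6 probe set 2 and Jun probe set 4, and 1 each to Klf6, Dusp1, Fos and Jun probe set 3.

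**Figure D3:**
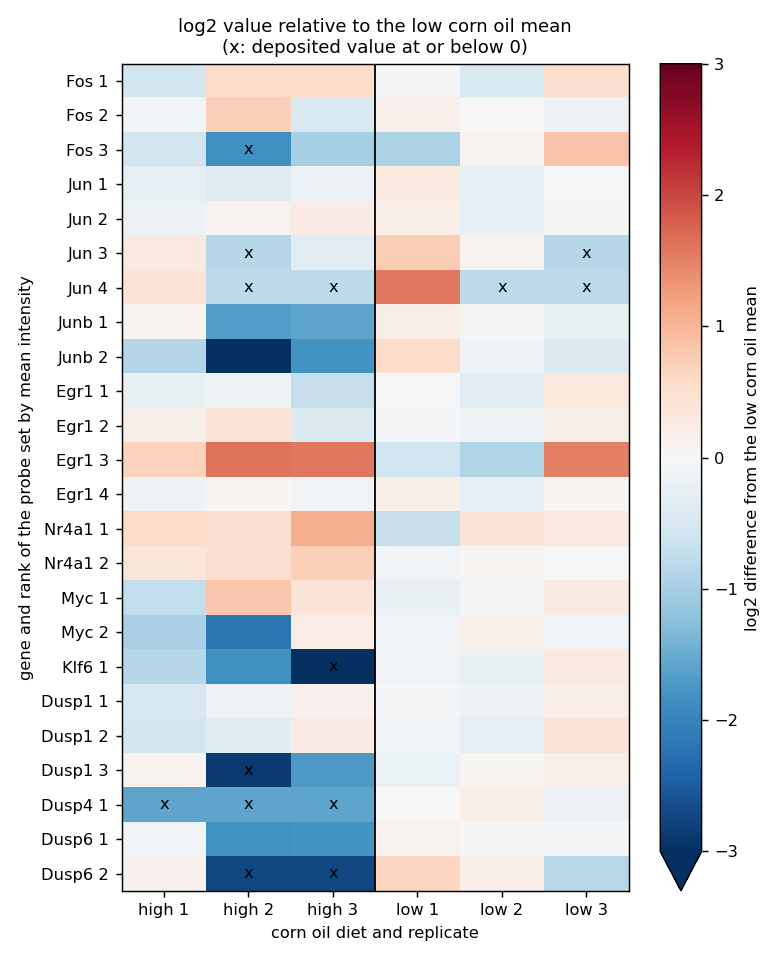
The log2 value of each of the 24 probe sets (rows, by gene and number) on each array (columns), relative to the mean of the low corn oil arrays, with blue for lower and red for higher and colours cut off at -3 and 3. Crosses mark the 11 high and 3 low corn oil values at or below 0, which gather in high corn oil replicates 2 and 3.

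The calls depended on which high corn oil arrays were used. With high corn oil replicate 1 left out, limma called 5 of the 20 tested probe sets, all lower. They were Junb probe set 1, Klf6, Dusp1 probe set 3 and both of Dusp6. Over the whole array limma called 214 of 5244 tested probe sets (4.08%), 135 lower and 79 higher. At an unadjusted p under 0.05 there were 8 of the 20, beside 26% of all. In that comparison the 2 remaining high corn oil arrays were both weak in spike-in signal, as was 1 of the 3 low corn oil arrays, so diet and spike-in level were largely mixed. With spike-in level as a block over all 6 arrays, limma called 0 of the 20 and 0 of all probe sets (0%), with 5 of the 20 at an unadjusted p under 0.05 beside 8.3% of all.

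Within the arrays of high spike-in signal, 1 high corn oil rat against 2 low corn oil rats, Junb probe set 1 differed by -0.040 and Dusp6 probe set 1 by -0.097. Within those of low signal, 2 high corn oil rats against 1 low corn oil rat, the differences were -1.40 and -1.77. Klf6 differed by -0.71 and -3.06 in the same order. For Klf6 and Dusp6 probe set 1, whose diets did not overlap, the sign was fixed in advance. These contrasts have no replicates on 1 side and were not tested.

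Markers of luminal cells were mixed as a list. In it 3 bright secretory genes and, to a lesser degree, the keratin Krt18 were low on the same arrays as Junb and Dusp6. Of the 9 tested genes 5 were lower and 4 higher, with a median log2 difference of -0.040. Summed over the 9 of 12 listed luminal genes on the array, intensity ran from 222699 to 361314 in high corn oil rats and from 320975 to 355614 in low corn oil rats. Pbsn differed by -1.19 ± 0.57 (limma adjusted p = 0.505), and by -1.94 without high corn oil replicate 1 (limma adjusted p = 0.00591). Msmb, a secreted microseminoprotein, had 73854, 33652 and 39953, against 66835, 71719 and 80234, and differed by -0.65 ± 0.28 (limma adjusted p = 0.501), or by -0.98 without high corn oil replicate 1 (limma adjusted p = 0.0255). Semg1, a semen coagulum protein, was at -0.54 ± 0.34 and at -0.96 without that array (limma adjusted p = 0.553 and 0.0313). The sum is carried by these few bright genes. Klk1, a kallikrein, went in the other direction, at 2.04 ± 1.34 (limma adjusted p = 0.561). Without high corn oil replicate 1 it passed, at 3.66 (limma adjusted p = 0.0474). Its intensities were -166.2, 3981 and 4849.0 under the high diet, against 778, 5.7 and 152 under the low diet. Sbp, the spermine-binding protein, was uneven within both diets, with 45313 and 53056 in high corn oil replicates 2 and 3 and 1891 in replicate 1, against 6801 to 39729 in low corn oil rats. The keratin Krt18 had 34742, 24173 and 23695 under the high diet, against 29874, 31462 and 32431.5 under the low diet. It was at -0.20 ± 0.18 (limma adjusted p = 0.652), and at -0.38 without high corn oil replicate 1 (limma adjusted p = 0.105). The keratins Krt8 and Krt19 were at -0.040 ± 0.16 and 0.10 ± 0.17, and Tgm4, a prostate transglutaminase, at 0.13 ± 0.74 (limma adjusted p = 0.930, 0.807 and 0.949). No luminal marker was at or below 0 on all arrays, and 0 of the 9 were called with all 6 arrays (0 at an unadjusted p under 0.05). In whole tissue, fewer cells of a type and less RNA per cell cannot be told apart, and the part of the luminal cells in these results was not tested.

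**Figure D4:**
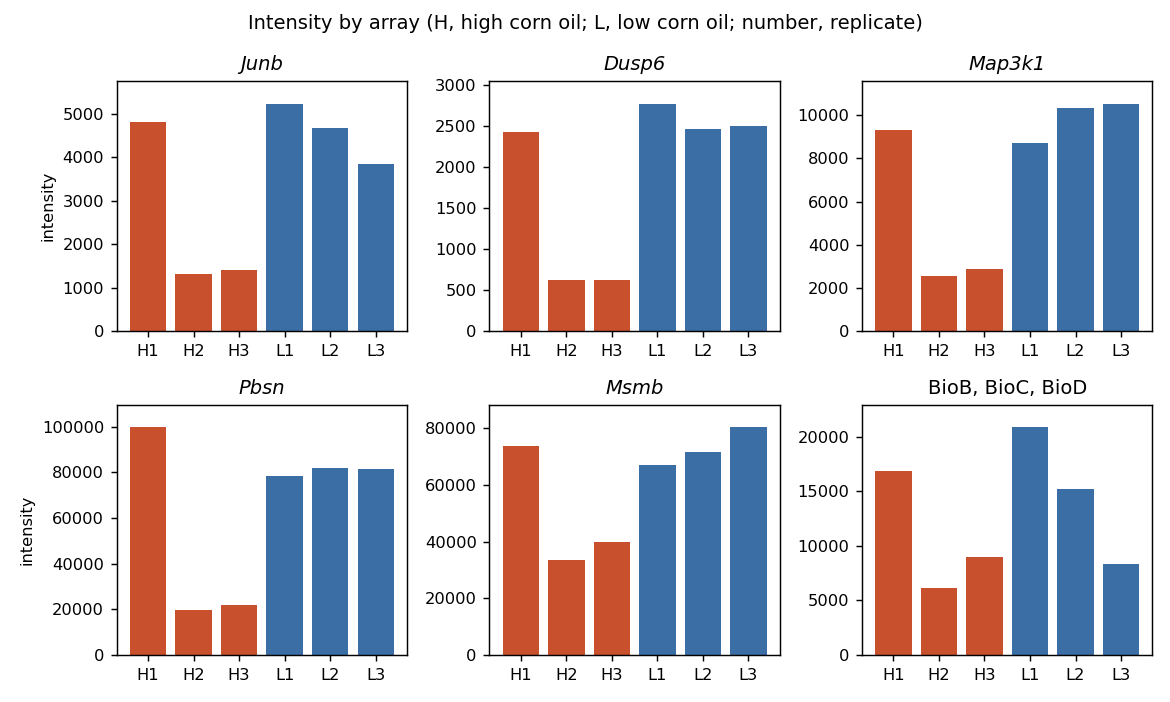
Intensity by array (bars, linear axes from 0) of Junb and Dusp6 (probe set 1), Map3k1, the secretory genes Pbsn and Msmb, and the geometric mean of the spike-in controls. High corn oil replicates 2 and 3 are the lowest bars in the first 5 panels, with Pbsn at 19851 and 21926, while low corn oil replicate 3 joins them only in the spike-in panel, at 8365.

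Summed markers of fibroblasts were lower under the high diet, with no overlap between the diets. The 10 of 12 listed genes on the array summed to 123959 to 132898 in high corn oil rats and to 149312 to 178779 in low corn oil rats. Bright genes made up much of this sum. Dcn and Mgp, with mean intensities of 44044 and 38103, were lower, and Sparc, with 24078, was higher. Of the 9 tested, 8 lay lower (median log2 difference -0.60), and limma called 0 of them (6 at an unadjusted p under 0.05). Dcn was at -0.60 ± 0.19 (limma adjusted p = 0.462), and at -0.77 without high corn oil replicate 1 (limma adjusted p = 0.0428). The 1 higher gene was Sparc, at 0.67 ± 0.36 (limma adjusted p = 0.524). The macrophage list, 10 of 14 genes, summed to 74056 to 95904 against 90214 to 98389, with 8 of 9 tested lower and 0 called by limma (5 at an unadjusted p under 0.05). Smooth muscle markers, 10 of 12 genes, summed to 162460 to 220421 against 205282 to 257493. Of these 10, all tested, 9 lay lower and 1 higher (median log2 difference -0.32), with 0 called by limma (2 at an unadjusted p under 0.05). Basal epithelial markers, 4 of 7 genes, had sums of 17559 to 19411 against 15038 to 15950.3, higher under the high diet with no overlap. In that list 3 genes were higher and 1 lower, with 0 called by limma (2 at an unadjusted p under 0.05). The lower one, Cd44, had 484, 453 and 515 under the high diet, against 912, 998 and 1008 under the low diet, while the bright keratin Krt5 made up much of the sum. No gene of these lists was at or below 0 on all arrays. Further marker lists, also with 0 called by limma, gave 5 of 5 tested skeletal muscle genes lower. They gave 3 lower and 3 higher lymphocyte genes, 1 and 2 mast cell, 1 and 2 endothelial, and 3 and 1 neural genes. The lower mast cell gene, Mcpt1l1, was at -1.62 ± 0.34 (limma adjusted p = 0.462). Without high corn oil replicate 1 it was at -1.83 (limma adjusted p = 0.0483). The part of any list in the results was not tested.

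Other genes of the pathway did not move as a group. Of 50 further immediate early and early response genes listed, 34 were on the array and 27 were tested, with 13 lower and 14 higher, a median log2 difference of 0.0040 and 0 called by limma (3 at an unadjusted p under 0.05). Klf10, a TGF-beta-inducible zinc finger gene, had 2429, 1852 and 1831 in high corn oil rats, against 2833, 2717.5 and 2850.1 in low corn oil rats, a difference of -0.44 ± 0.17 (limma adjusted p = 0.480), and -0.15 by the mean of its probe sets. Ier3, an early gene tied to cell survival, had 4886, 4288 and 3818, against 3409, 3087 and 3240.0, a difference of 0.39 ± 0.15 (limma adjusted p = 0.480), but -0.13 by the mean of its probe sets. Klf9, a glucocorticoid and thyroid hormone target, was at 0.84 ± 0.36 (limma adjusted p = 0.494), and at 0.54 with replicate 2 of the high diet left out. Ptgs2, the inducible cyclooxygenase and an immediate early gene itself, was at 0.21 ± 0.22 (limma adjusted p = 0.692).

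Among other phosphatases and feedback inhibitors, 6 of 23 listed genes were tested, 3 lower and 3 higher, with 0 called by limma (0 at an unadjusted p under 0.05). Dusp5, a nuclear ERK phosphatase, had 1478, 1501 and 1891 in high corn oil rats, against 1403.5, 1334.0 and 1331 in low corn oil rats, a difference of 0.23 ± 0.18 (limma adjusted p = 0.632). Its sign was thus opposite to that of Dusp6, though its groups differed little. Errfi1, an inhibitor of the EGF receptor, was at -0.35 ± 0.21 (limma adjusted p = 0.548) and Rasa1, which inactivates RAS, at -0.50 ± 0.36 (limma adjusted p = 0.596). Leaving out single arrays moved Dusp5 to as little as 0.12, Errfi1 to -0.22, and Rasa1 to between -0.80 and -0.32.

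Of the kinases and adaptors, 20 of 46 listed genes were tested, 10 lower and 10 higher, with 0 called by limma (2 at an unadjusted p under 0.05). Those 2 were Map3k1 and Map3k12, which lie upstream of JNK. Map3k1, the kinase MEKK1, had 9300.1, 2549 and 2863 under the high diet, against 8732, 10327 and 10534 under the low diet, a difference of -1.23 ± 0.45 (limma adjusted p = 0.480), and -1.80 without high corn oil replicate 1 (limma adjusted p = 0.0119). Map3k12, the kinase DLK, had 7919, 1189.7 and 2515, against 11843, 11022.5 and 9507, a difference of -1.83 ± 0.58 (limma adjusted p = 0.462), and -2.52 without that array (limma adjusted p = 0.0208). Replicates 2 and 3 of the high diet were again the low ones. Mapk6, the atypical kinase ERK3, was at 0.38 ± 0.20 (limma adjusted p = 0.517).

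Partners and targets of MYC were few on the array, with 6 of 16 listed genes tested, 4 lower and 2 higher, and 0 called by limma (1 at an unadjusted p under 0.05). That gene was Ccnd2, which encodes cyclin D2, at -1.02 ± 0.21 (limma adjusted p = 0.462), and -1.10 without high corn oil replicate 1 (limma adjusted p = 0.0448). Mxd4, a repressor that competes with MYC for MAX, was at -1.05 ± 0.50 (limma adjusted p = 0.505). It was at -1.61 without high corn oil replicate 1 (limma adjusted p = 0.0472) and at -0.55 without high corn oil replicate 2. Cdk4 was at 0.33 ± 0.15 (limma adjusted p = 0.501). Odc1, ornithine decarboxylase and a textbook MYC target, was at -0.0007 ± 0.16 on probe set 1 and at 0.52 ± 0.19 on probe set 2 (limma adjusted p = 0.998 and 0.480). Like Myc itself, Odc1 therefore gave no single direction.

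Stress-inducible heat shock genes were level as a list: 9 of 12 were tested, 4 lower and 5 higher, with a median log2 difference of 0.032 and 0 called by limma (1 at an unadjusted p under 0.05). It was the mitochondrial chaperonin gene Hspd1, at 0.48 ± 0.18 (limma adjusted p = 0.480). Cryab was at 0.24 ± 0.29 and Hmox1 at -0.27 ± 0.34.

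The mean of the standardized log2 values of the 9 tested genes was -0.37, -0.20 and -0.26 in high corn oil rats, and 0.24, -0.085 and 0.67 in low corn oil rats. These 9 genes did not share a profile: Junb had Pearson correlations of -0.77 with Fos and -0.82 with Myc, but of 0.99 with Dusp6. All 3 high corn oil rats were below all 3 low corn oil rats on this mean, by a narrow margin for low corn oil replicate 2. The mean includes Klf6 and Dusp6, whose diets did not overlap, and Nr4a1, which went the other way. How often such a mean separates the diets was not counted, so this is no result about the members. Among 3153 other tested genes, the profiles most like it over the 6 arrays were those of Zfp260, with a Pearson correlation of 0.957, Ncbp2, with 0.939, and Ipo7, with 0.938. These correlations rest on 6 arrays that share their scaling, and the best of so many profiles are high by selection.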

How the data were processed

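Gene expression in 6 dorsolateral prostates was measured on a short-oligonucleotide rat array from 6 ug of total RNA each. The deposited intensity values are linear, 1 per probe set and array, and MAS5 is the tool named in the submitters' processing notes, with version and settings not given in the sources used here. With 2% of probe sets trimmed at each end, every array had a mean of 2500.0, so the authors scaled the deposited intensity values. From 18.6% to 23.1% of values were at or below 0, and the step that made them is not given in the sources used here. Detection calls were not used here. No pair of arrays shared more than 0.0568% of values.

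Genes were named through the platform annotation, updated by gene identifier to GRCr8 symbols: of 8799 probe sets, 7006 had 1 gene, 308 several, 1426 none and 59 were controls. Values below 0 were set to 0 and transformed as log2(value + 156.1), the median of all values divided by 4. Probe sets other than controls with a mean of at least 343, the 40th percentile, were tested, 5244 in all. Limma 3.58.1 in R 4.3.3 (lmFit, eBayes with an intensity trend) compared the diets, two-sided; p-values were adjusted over the 5244 probe sets by Benjamini-Hochberg, and the threshold was 0.05. In simulated data for high against low corn oil (5244 probe sets, 5 rounds, 200 changed), 47.2% of changes of 1 and 84.0% of changes of 2 in log2 were called. The changed probe sets were drawn from the brighter tested ones, with independent noise and no array deviating as a whole. These rates therefore need not hold for dim members or for these arrays. Precision is limited by having 3 arrays per diet.

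Members and gene lists were chosen with earlier results of these data known. All members were named, and from each pathway list the 3 other genes with the smallest unadjusted p, besides Ptgs2, Odc1 and the 3 most similar profiles. Arrays above and below the median spike-in signal formed the spike-in block. Replicate numbers are not stated to mark shared litters or days, and deviations of same-numbered rats correlated at -0.05, -0.20 and 0.18, so they were not treated as pairs. Other settings changed the pseudocount, floor, filter, normalization, trend, weights, blocks, the diet assigned to high corn oil replicate 3 and the way probe sets were summarised per gene, and left out each array.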

Additional observations from a re-analysis of the deposited data

How the results depend on the processing

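With no filter, limma called 9 probe sets, 1 of them a member (Dusp4). Without high corn oil replicate 1 it called 214 and 5 members, and with quantile normalization besides, 218 and 5. The other settings run called 0 of both, with 75 (high corn oil replicate 3 taken as low) to 1534 (array weights) at an unadjusted p under 0.05 against 522. Leaving out each array in turn gave 0 to 214 calls, 0 to 5 member calls, a median of the 10 genes from -0.46 to -0.24, and 6 to 13 member probe sets with separate diets. That number was 13 without high corn oil replicate 1, 11 with quantile normalization besides and 3 with high corn oil replicate 3 taken as low. Smaller groups separate more easily, and the share over all probe sets was not counted in these settings. These numbers are therefore no result about the members. The share of members at or below 0 was 11.1 percentage points higher under the high diet, and 6.25 to 16.7 with an array left out. The median was -0.52 when all probe sets of a gene were averaged. With a replicate block limma called 0, with 554 at an unadjusted p under 0.05 against 522, and 8 members against 4. The block changed no call.

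Differences near 0 turned round in some settings, none of them called by limma. With array weights, Fos probe set 2 by brightness was at -0.061, Egr1 probe set 2 by brightness at -0.031 and probe set 4 at 0.068, Dusp1 probe sets 1 and 2 at 0.051 and 0.10, and Odc1 at 0.11. With the spike-in level block, Fos 1 was at -0.12, Jun 2 at -0.0063 and Myc 1 at -0.14. With high corn oil replicate 3 taken as low these were at -0.13, -0.093 and -0.060. With quantile normalization and high corn oil replicate 1 left out, Egr1 2 was at -0.10. Leaving out each array in turn, Fos 1 ran from -0.030 to 0.57, Fos 2 from -0.27 to 0.31, Jun 2 from -0.061 to 0.17, Egr1 2 from -0.12 to 0.29, Egr1 4 from -0.17 to 0.045, Myc 1 from -0.18 to 0.60 and Odc1 from -0.095 to 0.12. Averaged over a gene's probe sets, Fos, Egr1, Myc, Ptgs2, Odc1 and Ier3 were at -0.29, 0.24, -0.41, -0.011, 0.26 and -0.13. Apart from probe sets of a gene that disagree, the cause was not tested. With high corn oil replicate 3 taken as low, Klf6 was at -0.44 and Junb and Dusp6 probe set 1 at -0.40 and -0.50, and the 2 Nr4a1 probe sets at 0.25 each. Values near or below 0 have no reliable order, which limits Dusp4, Jun probe sets 3 and 4 and Fos probe set 3 most.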
